A study of Mus musculus with 40 samples.

Results

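CTCF, the cohesin subunits SMC3 and RAD21, the release factor WAPL and the loader NIPBL were compared with one another in small pre-B cells of Brwd1 knockout mice, by ChIP-seq with 2 libraries per target. These are 10 of the 40 samples of the series and were chosen by target and genotype alone, so that the 5 proteins could be set side by side in 1 cell state without a comparison between genotypes. Small pre-B cells are the resting bone marrow stage at which immunoglobulin light chain genes are recombined. The cells were primary cells sorted by flow cytometry from bone marrow of Brwd1-/- mice (labelled BRWD1KO), with 2000000 cells in each ChIP and no treatment. The labels give no age, sex, strain or deleted part of Brwd1, and name the 2 libraries of a target as biological replicates. By title, all groups used here carry the knockout, including the input and the H3K27ac and H3K4me1 libraries that served as references. Peak names in some of the lists say otherwise, as given below. A peak shared by 2 targets is a property of the pooled cells and does not show that both proteins lie on 1 DNA molecule.

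Cohesin is a ring-shaped complex that holds and extrudes loops of chromatin. SMC3 and RAD21 are core subunits of the ring, so both antibodies address the same complex. NIPBL stimulates loading and loop extrusion, and WAPL releases the ring from chromatin. CTCF binds a defined DNA sequence and halts extruding cohesin, which is why cohesin usually accumulates at CTCF sites. Brwd1 encodes a bromodomain protein of late B cell development, a stage in which the long arrays of immunoglobulin gene segments are contracted by loops before recombination.

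The sequences below are promoters of genes at sites with CTCF, the first 4 from the largest shared class, CTCF with SMC3. They were joined to the sites by gene symbol, and the motif was not placed within a peak. Of the sites in that class, 8.31% lay within 1 kb of a gene start. The invariant letters of the 12-base core of the CTCF motif were searched on both strands in RefSeq promoters (GRCm38.p6, 250 bases before to 50 after the gene start), and no other motif was searched. Of 398 genes whose start lay in a region with CTCF and SMC3 and no other target, 299 had a promoter in the table under the same symbol, and 50 of these (16.7%, exact 95% interval 12.7 to 21.4%) held the motif. With CTCF alone 679 of 930 genes had a promoter there and 79 held the motif (11.6%, 9.32 to 14.3%), and over all 27025 genes with a promoter sequence it was 763 (2.82%). With WAPL alone 9 of 28 genes had a promoter there and 0 held the motif, which allows up to 33.6%. Each of the first 6 stretches is 60 bases of the gene's own strand with the motif in capitals. In Lsm11 and Rbm17 the motif lies on the opposite strand and its letters appear as the reverse complement. The first 4 promoters carried CTCF and SMC3 and the other 2 carried CTCF alone. The last line is the 250 bases before the start of Pgk1, shown because all 5 targets had a peak there; it holds no copy of these letters.
Lsm11 (chr11:45945003-45945062, minus strand): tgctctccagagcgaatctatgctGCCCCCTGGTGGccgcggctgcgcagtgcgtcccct
Snx18 (chr13:113618678-113618737, minus strand): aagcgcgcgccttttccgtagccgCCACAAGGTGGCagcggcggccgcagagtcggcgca
Copg1 (chr6:87887697-87887756, plus strand): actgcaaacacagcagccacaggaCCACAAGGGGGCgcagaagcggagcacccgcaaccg
Rbm17 (chr2:11603333-11603392, minus strand): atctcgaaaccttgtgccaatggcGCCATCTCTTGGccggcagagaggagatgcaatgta
Rplp0 (chr5:115559266-115559325, plus strand): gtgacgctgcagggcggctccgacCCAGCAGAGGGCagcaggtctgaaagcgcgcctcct
Crocc (chr4:141060708-141060767, minus strand): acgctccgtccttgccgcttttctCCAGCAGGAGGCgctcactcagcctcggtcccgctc
Pgk1 (chrX:106186850-106187099, plus strand): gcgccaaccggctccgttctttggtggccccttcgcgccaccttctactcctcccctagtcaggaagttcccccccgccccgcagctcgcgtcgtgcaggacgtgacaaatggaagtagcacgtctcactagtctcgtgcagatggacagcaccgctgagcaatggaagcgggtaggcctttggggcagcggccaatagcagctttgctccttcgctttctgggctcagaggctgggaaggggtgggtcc

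These coordinates are GRCm38.p6, while all positions that follow are in mm9, the build of the deposited files. At Lsm11, which encodes a subunit of the particle that processes histone mRNA, the site spanned 11:45758220-45758789 and the CTCF scores were 214 and 232. The CTCF libraries held 343 and 413 reads there against 21 input reads. SMC3 gave 90 and 84 reads in its own region there. Snx18, a membrane sorting protein gene, carried 177 and 231 CTCF reads and 100 and 138 SMC3 reads. At the promoters of Rplp0, a ribosomal stalk protein gene, and Crocc, a ciliary rootlet gene, CTCF scored 92.2 and 125, and 92.0 and 120, with no SMC3 consensus peak. The CTCF scores at these 2 promoters therefore lay within the range of the first 4, which ran upward from 82.2 in knockout 1.

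Reads within the regions of a target ran from 3784506 in a NIPBL library to 30496715 in a WAPL library, and the WAPL pair held at least 28011360 each. The single knockout input column held 4890210 to 9433633 reads over the same region sets. The replicates of each target differed by more than sampling noise (chi-square per region 1.16 to 17.8, the highest for RAD21), so none was counted as a duplicate. The second RAD21 library stands apart from the first at CTCF sites: 53.4% of the peaks of knockout 1 but 0.958% of those of knockout 2 lay there, so every consensus value for RAD21 depends on that library. A few labels disagreed. The peaks of the second NIPBL knockout list carry names of a wild-type NIPBL library, and the H3K27ac knockout lists carry names of H3K4me1. Those H3K4me1 names lack the knockout tag that the H3K4me1 knockout lists carry. The genotype field of the H3K27ac and H3K4me1 knockout libraries reads WT where title and description give knockout. The H3K27ac list also did not mark the genes that define the labelled cell type. A consensus H3K27ac peak lay within 1 kb of the start of 1 of 16 pre-B and B lineage marker genes (Cd72), and none was found at Cd79a, Cd79b, Ebf1, Pax5, Vpreb1, Igll1, Rag1 or Il7r. The same count was 3 of 12 T cell markers, 2 of 11 myeloid markers, 1 of 10 erythroid markers and 9.27% of all genes. Overlap with that list is therefore given below as overlap with the deposited list and not as a reading of active enhancers.

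The 5 targets gave peak lists of 3 visible kinds. CTCF had 26210 and 28098 peaks with median widths of 341 and 377 bp, and 93.4% and 86.7% of them were found again in the other replicate. SMC3 had 12467 and 12323 peaks of 287 and 269 bp, with 75.2% and 76.1% found again. WAPL had 52236 and 68700 peaks of 131 and 129 bp, with 86.8% and 65.9% found again. NIPBL had the shortest lists, 2333 and 2048 peaks of 119 and 118 bp, with 48.2% and 54.8% found again. RAD21 fell between the kinds and its replicates were unlike each other: knockout 1 had 16283 peaks of 192 bp and knockout 2 had 38712 peaks of 150 bp, with 43.2% and 17.9% found again. CTCF and SMC3 libraries thus had wide peaks, and WAPL and NIPBL libraries had narrow ones, with no overlap in median width between those 2 pairs of targets.

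Summed over the 5 targets, the 2 libraries of a target were closer than under most other pairings in each of the 4 measures tested. RAD21 was an exception: in each measure its knockout 2 lay nearer to a WAPL library than to RAD21 knockout 1. The RAD21 pair also made up most of the within-target sum of squares for the share overlapping the H3K27ac list, 1046 with it and 57.2 without. An exact one-sided permutation test over all 945 pairings gave adjusted p = 0.00423 for median width, 0.00705 for the number of peaks, 0.00741 for the share within 1 kb of a gene start and 0.00423 for the share overlapping the H3K27ac list. The smallest p this test can give before adjustment is 0.00106. For a single pair of targets, 2 libraries against 2 cannot go below p = 0.333 in an exact two-sided test, so differences between named targets are given as values of both libraries. The p for gene starts rose to 0.0667 (exact permutation, adjusted) when CTCF or SMC3 was left out.

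**Figure D1:**
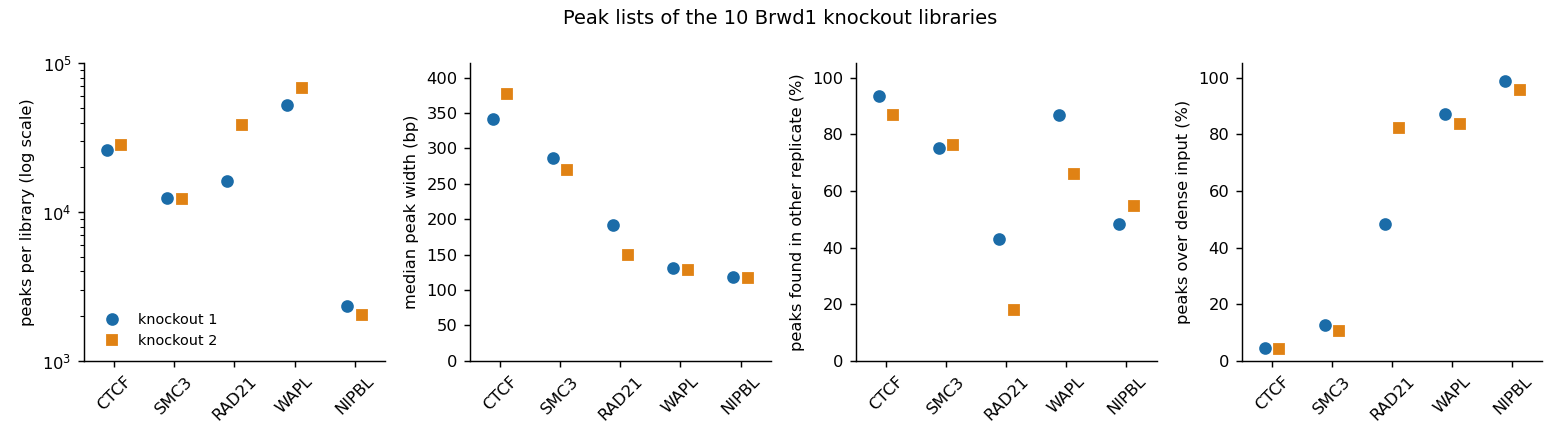
Number of peaks (log scale), median peak width in bp, share of peaks found again in the other replicate and share of peaks over dense input, for each of the 10 libraries (circle knockout 1, square knockout 2). CTCF and SMC3 sit high in width and low in dense input, WAPL and NIPBL the reverse, and the RAD21 pair is spread, from 48.3% to 82.4% over dense input.

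The wide and narrow peaks lay on different DNA. Input reads measure how many fragments a stretch yields without any antibody. The median density of the knockout input under consensus peaks was 34.3 reads per kb for CTCF and 41.2 for SMC3, but 263 for WAPL, 661 for RAD21 and 1547 for NIPBL. With dense input set at over 100 reads per kb, 4.45% and 4.35% of the CTCF peaks and 12.7% and 10.5% of the SMC3 peaks lay over it. For WAPL the shares were 87.1% and 83.6%, and for NIPBL 98.9% and 95.7%. RAD21 gave 48.3% in knockout 1 and 82.4% in knockout 2. What part dense input plays in the peaks of WAPL, NIPBL and RAD21 was not tested.

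Position relative to genes and to the H3K27ac list followed the same division. Of the CTCF peaks 10.3% and 11.01% lay within 1 kb of a gene start, and of the SMC3 peaks 7.71% and 8.08%. WAPL gave 1.43% and 1.36%, NIPBL 2.01% and 2.15%, and RAD21 4.92% and 1.44%. The H3K27ac list overlapped 2.93% and 2.81% of CTCF peaks and 9.69% and 7.40% of SMC3 peaks. It overlapped 88.9% and 83.5% of WAPL peaks and 92.6% and 87.7% of NIPBL peaks, with RAD21 at 43.9% and 75.4%. Its own peaks had a median width of 144 bp in knockout 1 and 141 bp in knockout 2, close to that of WAPL.

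Consensus peaks numbered 24471 for CTCF, 9377 for SMC3, 7027 for RAD21, 45322 for WAPL and 1125 for NIPBL. Peaks under 200 bp made up 7.24% of the CTCF set and 14.3% of the SMC3 set, against 86.2% for RAD21, 84.7% for WAPL and 82.3% for NIPBL. The RAD21 consensus set was thus of the narrow kind, although the longer part of the RAD21 knockout 1 list (9256 peaks absent from knockout 2) had a median width of 282.5 bp.

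Pairwise overlap joined SMC3 to CTCF and set both apart from WAPL. Of the SMC3 consensus peaks, 94.6% (exact 95% interval 94.1 to 95.01%) overlapped a CTCF consensus peak, and the 4 pairings of single replicate lists gave 90.4 to 92.9%. In the other direction 36.1% (35.5 to 36.7%) of the CTCF peaks overlapped SMC3, with 39.8 to 43.3% over the single lists. Only 0.558% of WAPL peaks overlapped CTCF and 0.977% overlapped SMC3. Of the CTCF peaks, 1.03% overlapped WAPL and 0.294% overlapped NIPBL.

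Most NIPBL consensus peaks overlapped a RAD21 peak, and fewer overlapped a WAPL peak. Of the 1125 NIPBL peaks, 96.5% (95.3 to 97.5%) overlapped RAD21, 77.7% overlapped WAPL, 36.9% overlapped SMC3 and 6.49% overlapped CTCF. The NIPBL to RAD21 share ran from 78.1 to 96.5% over the 4 pairings of single lists, and the NIPBL to WAPL share from 81.5 to 92.6%. For NIPBL knockout 2 the shares were 78.1 and 87.4% with the RAD21 lists, but 81.5 and 92.6% with the WAPL lists. The order of RAD21 and WAPL therefore belongs to the consensus sets and did not hold in every list. Knockout 1 of NIPBL, whose peak names fit its label, gave 91.6% with RAD21 knockout 1 and 96.5% with RAD21 knockout 2. Of the 7027 RAD21 peaks, 87.8% overlapped WAPL, 15.3% NIPBL, 9.63% SMC3 and 4.10% CTCF. Of the far more numerous WAPL peaks, 13.6% overlapped RAD21 and 1.92% NIPBL.

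**Figure D2:**
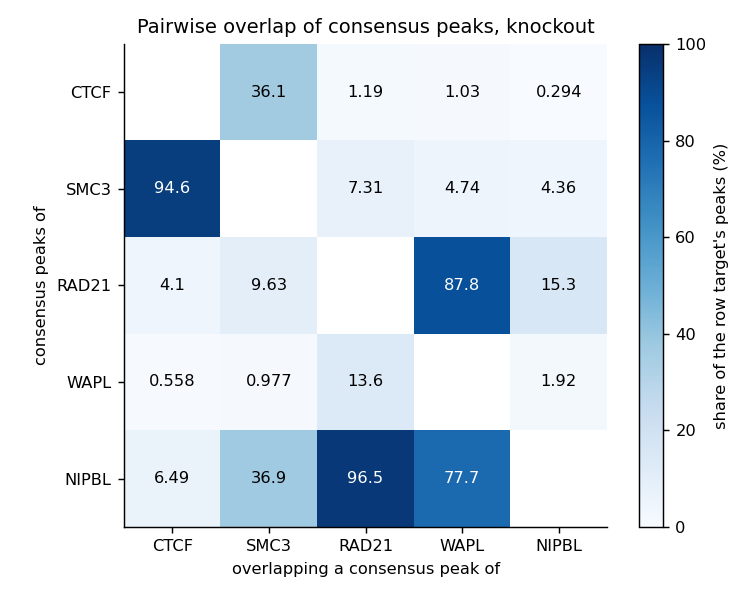
Share (%) of the consensus peaks of each row target that overlap a consensus peak of the column target by at least 1 bp. The 3 darkest cells are NIPBL at RAD21 (96.5%), SMC3 at CTCF (94.6%) and RAD21 at WAPL (87.8%), while SMC3 at RAD21, the pair of ring subunits, is 7.31%.

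The number of peaks compared and the input under them both moved these shares. With the 1125 highest-scoring peaks of each target, SMC3 at CTCF was 37.2%, RAD21 at WAPL 19.1% and NIPBL at RAD21 55.6%. Among the 230 RAD21 consensus peaks outside dense input, 72.2% overlapped CTCF, 69.1% SMC3 and 31.3% WAPL. Of the 1125 NIPBL consensus peaks only 10 lay outside dense input, and 2 of these overlapped RAD21. The NIPBL to RAD21 share of 96.5% thus rests almost wholly on peaks over dense input. The SMC3 to CTCF share was 99.3% among the 8521 SMC3 peaks outside dense input, above the 94.6% over all of them. In these shares the peaks of the other target were kept whatever their input. Of the 4935 WAPL peaks outside dense input, 1.50% overlapped RAD21 and 1.01% overlapped CTCF.

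Midpoint distances were measured only between overlapping peaks, so the widths of the peaks limit them. The median width of consensus peaks was 353 bp for CTCF and 314 bp for SMC3. It was 123 bp for RAD21, 133 bp for WAPL and 125 bp for NIPBL. The shorter distances between narrow peaks are therefore not read as closer binding. The median distance between midpoints was 42.5 bp for SMC3 and CTCF (8875 pairs), 9.5 bp for RAD21 and WAPL and 4.0 bp for NIPBL and RAD21. The SMC3 peaks outside CTCF peaks lay a median of 46243 bp from the nearest one (481 peaks). For RAD21, WAPL and NIPBL the gaps of the non-overlapping peaks were 87098, 78578 and 84578 bp. Of the 9348 SMC3 peaks on chromosomes with a measured gap, 94.9% overlapped CTCF, 95.2% lay within 1 kb of it and 96.2% within 10 kb.

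Stronger CTCF peaks carried cohesin more often. With the CTCF consensus peaks split into 4 equal groups by score in knockout 1, the share with an SMC3 consensus peak was 4.77%, 17.1%, 44.7% and 77.7% from the lowest to the highest group. Each SMC3 library showed this: 11.4% to 84.3% in knockout 1 and 11.9% to 84.3% in knockout 2. RAD21 knockout 1 went from 6.39% over 17.2% and 42.7% to 75.2%. RAD21 knockout 2 stayed between 0.981% and 2.94%. The 8830 CTCF peaks with SMC3 had a median score of 44.0 and a median width of 441 bp, and the 15641 without it 16.3 and 305 bp. In knockout 2 of CTCF the median scores were 51.0 and 19.2.

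The 2 RAD21 libraries marked different places. Of the RAD21 knockout 1 peaks, 53.4% lay at CTCF consensus peaks, 42.9% at SMC3 and 41.9% at WAPL. Of the RAD21 knockout 2 peaks, 0.958% lay at CTCF, 1.73% at SMC3 and 61.3% at WAPL. Read from the other side, 74.5% of SMC3 consensus peaks were in the first RAD21 list and 7.59% in the second. Of the CTCF consensus peaks, 35.4% were in the first list and 1.56% in the second. Nearly all NIPBL consensus peaks were in both, with 98.1% and 97.6%. The RAD21 consensus set keeps what the lists share, and so it drops the CTCF part of knockout 1. The 9256 peaks of knockout 1 that were not in knockout 2 lay at CTCF in 90.8% of cases and at SMC3 in 68.1%, with a median input of 47.0 reads per kb. The 31764 peaks of knockout 2 that were not in knockout 1 lay at CTCF in 0.305% and at WAPL in 55.3%, with a median input of 315 reads per kb. Both ring subunits thus coincided in the first RAD21 library and largely not in the second. Whether the second library holds what its label names was not tested. Values for RAD21 peaks and sites that name no library rest on the consensus set, and so on both lists.

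**Figure D3:**
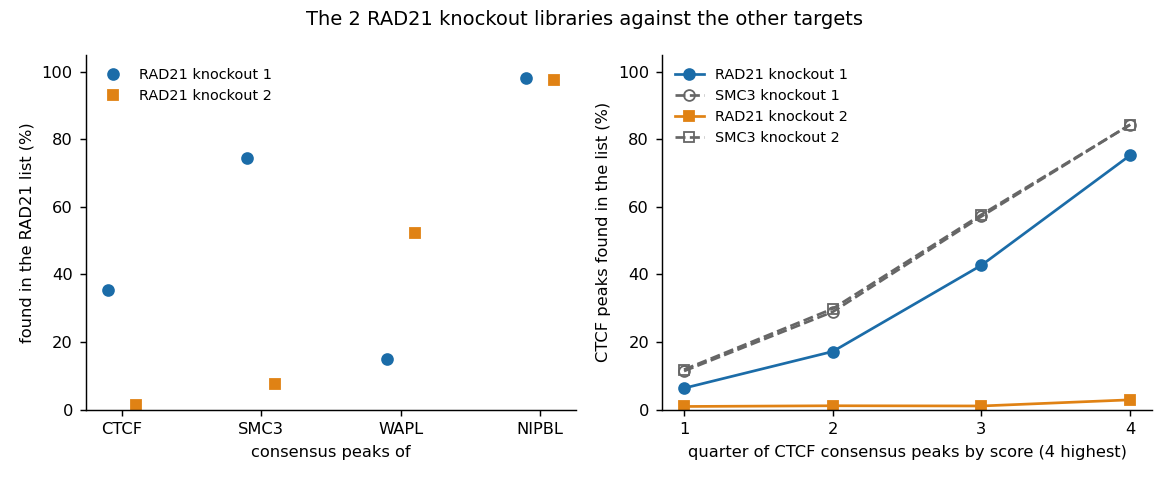
Left, share (%) of the consensus peaks of CTCF, SMC3, WAPL and NIPBL found in each RAD21 list. Right, share (%) of CTCF consensus peaks, in 4 equal groups by score, found in each RAD21 list (solid) and each SMC3 list (dashed): RAD21 knockout 1 climbs with SMC3 to 75.2% while RAD21 knockout 2 ends at 2.94%.

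The read counts over the deposited regions showed the same split. Over RAD21 regions at CTCF consensus peaks (8853 regions), the median ratio of ChIP to input was 4.27 in knockout 1 and 0.468 in knockout 2. Over regions at WAPL peaks (25386 regions) it was 1.15 and 1.09, and over those at NIPBL peaks 1.74 and 1.50. The ratio sets a region's share of its library's reads against its share of the input, over the regions of that target. A region at 1 thus has as many ChIP reads per input read as the whole set, which includes the target's own peaks. A value of 1 is therefore not the level of the input. The ratio is comparable between sites of 1 target and not strictly between targets.

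Merging the consensus peaks of the 5 targets gave 70226 sites, and 28 of the 31 possible combinations occurred. Single targets made up 54916 sites (78.2%). The 4 combinations with more than 1000 sites held 97.0% of all: WAPL alone (38955), CTCF alone (15485), CTCF with SMC3 (8503) and RAD21 with WAPL (5191). All 5 targets shared 22 sites. SMC3 without any other target occurred at 58 sites and NIPBL without any other at 1. Of the 24462 sites with CTCF and the 46180 with WAPL, RAD21 or NIPBL, 474 were common, which is 1.94% of the former and 1.03% of the latter. The combination of ring and anchor, CTCF with SMC3 and RAD21, numbered 158. With RAD21 taken from knockout 1 alone it numbered 6357, with 2297 sites left to CTCF and SMC3, and with RAD21 from knockout 2 alone it numbered 176. RAD21 with WAPL numbered 5752 with the first list and 22688 with the second.

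**Figure D4:**
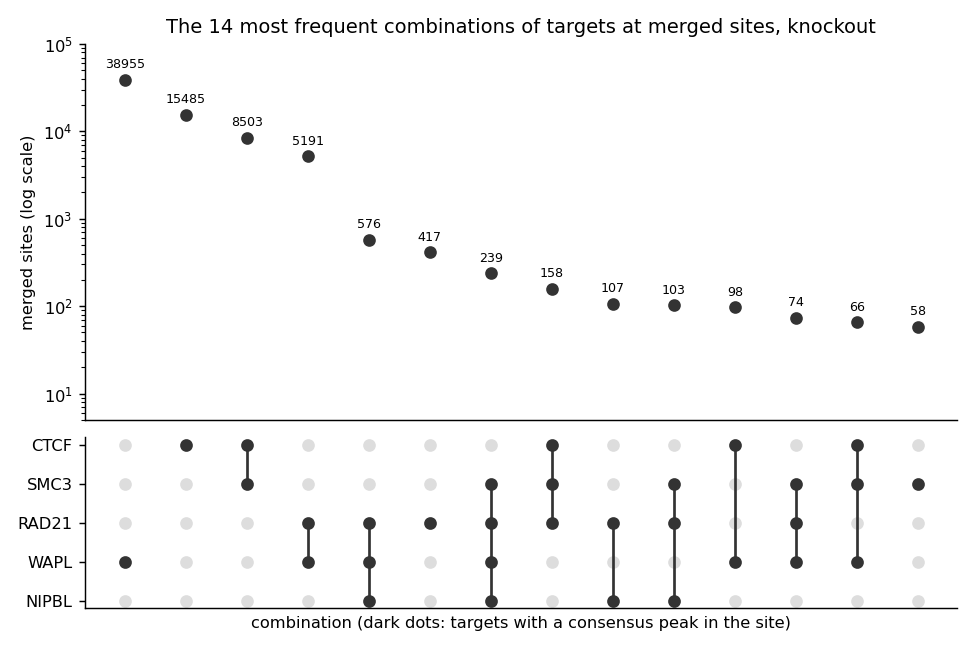
Number of merged sites (log scale) for the 14 most frequent combinations of targets, with the targets present in each marked by dark dots. The 4 most frequent combinations hold 38955, 15485, 8503 and 5191 sites, and the fifth, RAD21 with WAPL and NIPBL, 576.

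The classes differed in shape and place. Sites with CTCF and SMC3 had a median width of 471 bp and a median input of 36.3 reads per kb, and 2.13% overlapped the H3K27ac list. Sites with CTCF alone were 306 bp wide, with 34.1 reads per kb and 1.43%. WAPL sites were 130 bp wide, with 236 reads per kb and 90.8%. RAD21 with WAPL was 150 bp wide, with 547 reads per kb and 94.0%, and with NIPBL added 172 bp, 1075 reads per kb and 93.8%. The 158 sites of CTCF, SMC3 and RAD21 were the widest of the classes over 100 sites at 643.5 bp, with 39.6 reads per kb and 8.23%. Promoters (within 2 kb of a gene start) held 15.4% of CTCF sites, 11.5% of CTCF with SMC3, 2.81% of WAPL sites and 2.77% of RAD21 with WAPL.

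CTCF reads were higher relative to input at sites with CTCF and SMC3 than at sites with CTCF alone. At sites with CTCF alone the median CTCF ratio was 4.22 and 4.47 in the 2 libraries. At sites with CTCF and SMC3 and no other target it was 5.72 and 6.11. The SMC3 ratio at sites with CTCF and SMC3 was 4.55 and 4.54. The RAD21 ratio there was 4.45 in knockout 1 and 0.468 in knockout 2, over the 73.4% of sites with a RAD21 region. WAPL regions covered 93 of these 8503 sites, where the ratio was 0.852 and 0.825. At the 38955 sites with WAPL alone the WAPL ratio was 1.11 and 1.08. It was 1.51 and 1.51 with RAD21, and 1.76 and 1.74 with RAD21 and NIPBL. The NIPBL ratio at the latter sites was 1.51 and 1.53. RAD21 reached 1.44 and 1.29 at RAD21 with WAPL. In SMC3 libraries, SMC3 consensus peaks outside CTCF had a ratio of 1.27 and 1.21 over a median input of 1795 reads per kb. For CTCF, SMC3 and WAPL the 2 libraries differed within a class by less than the CTCF classes differed from the WAPL classes, which did not hold for RAD21 and NIPBL.

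**Figure D5:**
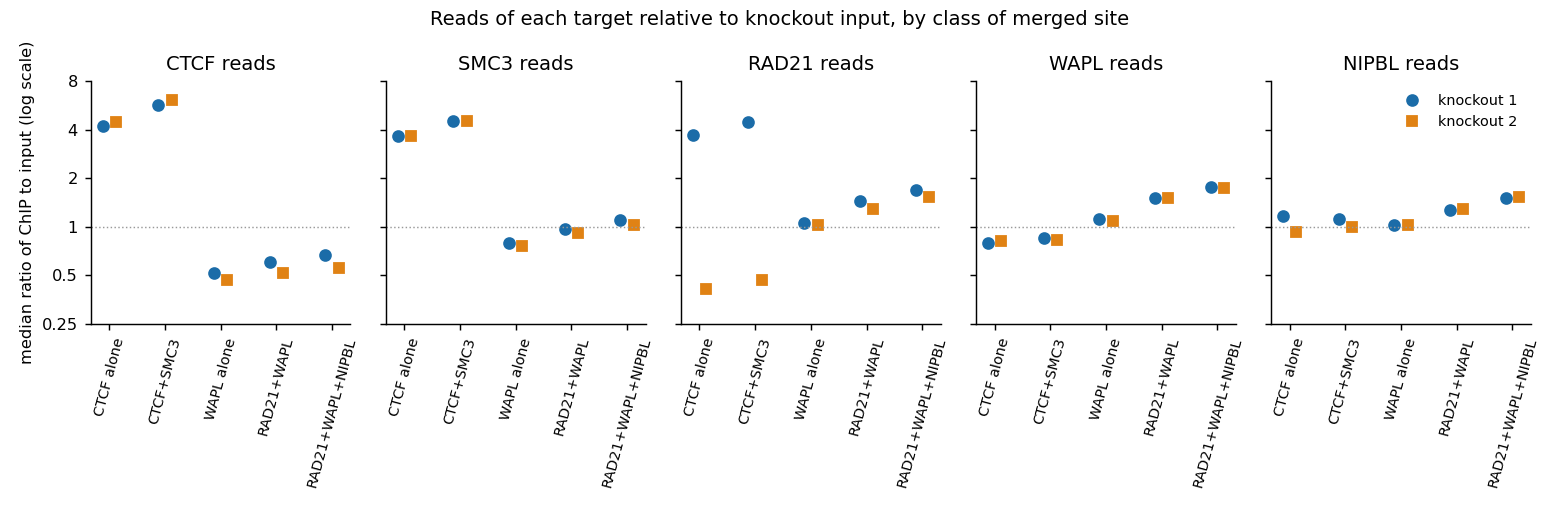
Median ratio of ChIP to input (log scale, dotted line at 1) for the reads of each target in 5 classes of sites, circle knockout 1 and square knockout 2. CTCF and SMC3 reads lie at or above 3.64 in the CTCF classes and at or below 1.095 elsewhere, WAPL and NIPBL reads lie between 0.787 and 1.76 throughout, and RAD21 follows CTCF in knockout 1 only. Each value covers only the sites with a region of that target. At sites with CTCF alone these were 30.2% for SMC3, 0.652% for WAPL and 0.232% for NIPBL. At sites with CTCF and SMC3 they were 1.09% for WAPL and 0.235% for NIPBL.

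The highest-ranked sites of each class show these values at single places. Among sites with CTCF and SMC3, that near Uvrag, an autophagy and membrane traffic gene (7:106299638-106300413), held 588 and 738 CTCF reads, 270 and 273 SMC3 reads, and 210 and 23 RAD21 reads against 24 to 30 input reads. The site near Arid3a, a B lineage DNA-binding protein gene (10:79387927-79388729), held 429 and 503 CTCF reads, 261 and 263 SMC3 reads, and 228 and 17 RAD21 reads. Dnahc17, Kif17 and Ccdc110 completed the 5, with CTCF ratios over the 5 of 10.3 to 19.6 in knockout 1 and 11.4 to 23.2 in knockout 2. The RAD21 ratios at these 5 sites ran from 7.16 to 11.2 in knockout 1 and from 0.562 to 1.12 in knockout 2. This class by definition leaves out sites with a RAD21 consensus peak. The gap between the libraries at sites picked from it is therefore not a separate result. Over all RAD21 regions of the class the medians were 4.45 and 0.468. The 5 leading sites with CTCF alone lay near Kdm3b, Med4, Exd1, Wrap53 and Erc2, with CTCF ratios of 7.26 to 14.7 in knockout 1. Only the sites near Kdm3b and Erc2 had an SMC3 region, without a consensus peak. The SMC3 ratios there were 2.88 and 2.83 near Kdm3b and 4.54 and 3.35 near Erc2. At Med4, a Mediator subunit gene (14:73909337-73909965), CTCF held 390 and 409 reads over the start of the gene against 36 input reads.

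The leading narrow sites had high read numbers and low ratios. Near Gorab, a Golgi protein gene (1:165354135-165354304), RAD21 held 209 and 115 reads against 132 input reads and WAPL 738 and 715 against 129. Kif2b, Klra3, Fam50b and Slc1a2 were the other four, and over the 5 the WAPL ratio was 1.22 to 2.00 in knockout 1 and 1.31 to 1.97 in knockout 2. The input at these sites ran from 786 to 1456 reads per kb. The 5 leading WAPL sites (near Raver1-fdx1l, Epha7, F2rl1, Tas1r2 and Prss2) had WAPL ratios of 1.14 to 1.71 and 1.12 to 1.78. The leading NIPBL sites lay near Ppp1r12a, Il24, Ighd3-2, Pak1ip1 and Actrt2, with NIPBL ratios of 1.55 to 2.30 and 1.56 to 1.95, over 553 to 6961 input reads per kb. Among these, 12:114686233-114686359 lies 43 bp from the start of Ighd3-2, a diversity segment of the immunoglobulin heavy chain locus, and held 662 and 674 NIPBL reads against 556 input reads.

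Sites with all 5 targets were few, and the promoter of Pgk1, a glycolytic kinase gene, headed them. Its site (X:103382061-103382652) was 592 bp wide with 31.02 input reads per kb. Against 18 input reads it held 191 and 218 CTCF reads, 209 and 229 SMC3 reads, 217 and 24 RAD21 reads, 496 and 421 WAPL reads and 125 and 86 NIPBL reads. The ratios were 10.4 and 11.2 for CTCF, 14.7 and 15.2 for SMC3, 6.86 and 6.34 for WAPL and 10.1 and 7.01 for NIPBL. RAD21 stood at 14.6 in knockout 1 and 1.73 in knockout 2. The site nearest to Ykt6, a vesicle fusion gene 50410 bp away (11:5906256-5906673), was alike, with 41.0 input reads per kb, WAPL ratios of 4.62 and 4.34 and NIPBL ratios of 8.10 and 5.16. The other three, near Prkdc, Csda and Nemf, lay over 328 to 1150 input reads per kb. At the site near Prkdc, the DNA-dependent kinase of end joining (16:15642883-15643034), CTCF held 357 and 267 reads and NIPBL 172 and 349 against 50 input reads. In each of the 5 sites RAD21 was lower in knockout 2, and at Prkdc, Csda and Nemf NIPBL was higher in knockout 2.

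With CTCF, SMC3, RAD21 and WAPL but not NIPBL, the 5 leading sites lay near Cdh15, Cd5, Snx29, Fam92b and Mmel1 and were 550 to 1267 bp wide. At the site nearest to Snx29, 100172 bp from its start (16:11423295-11424561), CTCF held 1316 and 1496 reads against 58 input reads. SMC3 there held 369 and 383 reads, and RAD21 343 and 174 reads against 44 input reads. Its RAD21 ratio in knockout 2 was 5.10, the highest of the sites named here for that library.

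NIPBL and CTCF met at 70 sites. Of these, 18 lay in the first 4 Mb of chromosome 9, 2 near 98 Mb of chromosome 2 and 2 on unplaced contigs, with a median input of 10067 reads per kb over these 22 sites. The other 48 had a median width of 163.5 bp and a median input of 361 reads per kb, and 31 of them were 140 to 180 bp wide. Of those 48, 46 overlapped the H3K27ac list and 24 the H3K4me1 list, and 5 lay within 1 kb of a gene start. Over the 70 sites NIPBL had a ratio of 2.97 and 5.16, SMC3 of 3.60 and 4.63, WAPL of 3.14 and 4.39 and CTCF of 3.41 and 2.54. RAD21 had a ratio of 3.31 and 0.874. The NIPBL replicates differ here by more than over all NIPBL peaks without CTCF, where the ratios were 1.54 and 1.56. They also differed, at 4.41 and 7.65, over the 39 NIPBL regions with a NIPBL peak and no RAD21 consensus peak. The replicates of the other targets differ at the 70 sites too. The second NIPBL library is the one whose list bears wild-type peak names, while its reads come from a count column labelled knockout. The cause of these differences was not tested.

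For description, 23 genes were picked: genes of the pre-B stage, Brwd1, genes of cohesin and its regulators, and the glycolytic genes Pgk1 and Gapdh. Counting each gene that the tables name within 10 kb of a site, nearest or not, 15 of the 23 had a site, 14 a CTCF site and 11 an SMC3 site. By the same rule 52.7% of all genes had a site, 36.0% a CTCF site and 15.2% an SMC3 site. Ebf1, a master regulator of the B lineage, had a site with CTCF and SMC3 at 11:44424196-44424832, with 193 and 233 CTCF reads, 100 and 79 SMC3 reads and 137 and 16 RAD21 reads. At Igll1, which encodes a surrogate light chain protein (16:16854939-16855417), the counts were 133 and 142 for CTCF, 62 and 57 for SMC3 and 65 and 4 for RAD21. Cd79a, a signalling chain of the pre-B receptor, had 2 sites with CTCF and SMC3, 6559 and 7170 bp from its start. Myc had a site with CTCF and SMC3 1450 bp from its start (15:61814580-61815446) and a CTCF site 1563 bp away. The latter had no SMC3 consensus peak, but its SMC3 region held 22 and 29 reads against 5 input reads. The SMC3 ratios there were 5.09 and 6.28, against 5.01 and 4.70 at the former. Foxo1, a transcription factor that drives Rag expression, had a site with consensus peaks of CTCF, SMC3 and RAD21 (3:52066178-52066899). There RAD21 held 144 and 14 reads, SMC3 127 and 109 and CTCF 196 and 190. The RAD21 score was 32.6 in knockout 1 and 6.39 in knockout 2, and the RAD21 ratio 4.73 and 0.504. At the Ebf1 site, which has no RAD21 consensus peak, the RAD21 ratio was higher in both libraries, 7.98 and 1.01.

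Cxcr4, the chemokine receptor that keeps pre-B cells in their niche, had 3 sites in the deposited SMC3 region that spans its start. One held CTCF and SMC3 (1:130488492-130489468), and 2 beside it held SMC3 alone; all 3 fall in 1 wide SMC3 peak of knockout 2. That whole region had 359 and 336 SMC3 reads against 96 input reads. Rag1, a recombinase gene, had 2 CTCF sites without an SMC3 consensus peak, with 111 and 140 CTCF reads at the stronger (2:101493020-101493419). SMC3 held 50 and 37 reads at that site against 22 input reads. Pax5, which fixes B cell identity, had a weak CTCF site (33 and 38 reads, 11 input reads). Klf2, a quiescence factor gene, had a WAPL site of 131 bp with 192 and 198 reads against 31 input reads. Among the genes of the complex, the start of Smc3 held CTCF and SMC3, Nipbl had 3 CTCF sites of which 1 held SMC3, and Ctcf had a CTCF site of 44 and 67 reads. Brwd1, Rag2, Vpreb1, Ikzf1, Irf4, Il7r, Bach2 and Rad21 had no site within 10 kb that named them as a near gene. At the 13 CTCF sites of these genes with a RAD21 region, the RAD21 ratio was lower in knockout 2 at all 13. It ran from 2.14 to 14.6 with a median of 3.82 in knockout 1 and from 0.285 to 1.73 with a median of 0.393 in knockout 2. Over all 8853 RAD21 regions at CTCF consensus peaks the medians were 4.27 and 0.468, so the difference was not particular to these genes. The share of all such regions that was lower in knockout 2 was not computed.

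Gene lists were read against the share of all 23676 genes near each class. Here a gene counts only as the nearest gene of a site within 10 kb, so Cd79a, whose sites lie nearer to other genes, is not counted. By this rule 11.0% of all genes had a site with CTCF and SMC3. Such sites lay near 8 of 20 genes of IL-7 receptor signalling and migration (Bcl2, Bcl2l1, Cish, Cxcl12, Cxcr4, S1pr1, Socs1 and Socs3) and 7 of 22 cell cycle genes, among them Ccnd3, the D cyclin of pre-B cells. The count was 6 of 27 for B lineage transcription factors (Bcl6, Ebf1, Id3, Myb, Myc and Sox4) and 4 of 16 for pre-B and B lineage markers. It was 0 of 12 for T cell markers and 0 of 11 for myeloid markers. For genes of cohesin and its regulators it was 3 of 23 (Nipbl, Smc3 and Stag1), for the pre-B receptor and recombination 2 of 22 (Igll1 and Xrcc5), and for the BRWD family 0 of 3. Glycolysis, oxidative phosphorylation and ribosomal protein genes gave 4 of 20, 5 of 22 and 4 of 22.

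A CTCF site of any combination lay near 28.6% of all genes, 14 of 27 B lineage transcription factors, 8 of 16 B lineage markers, 1 of 12 T cell markers and 5 of 11 myeloid markers. It lay near 12 of 20 genes of IL-7 receptor signalling and migration, 11 of 20 of glycolysis and 10 of 22 of the cell cycle. Cohesin and its regulators gave 10 of 23, oxidative phosphorylation 9 of 22, ribosomal proteins 8 of 22 and the BRWD family 0 of 3. Shares above that of all genes were thus not particular to the B lineage lists. CTCF alone lay near 20.3% of all genes, and near 9 of 27 B lineage transcription factors, 4 of 16 B lineage markers and 5 of 11 myeloid markers. WAPL alone lay near 18.8% of all genes, 5 of 12 T cell markers (Cd3d, Cd3g, Cd5, Cd8b1 and Lck), 5 of 11 myeloid markers and 4 of 27 B lineage transcription factors. It also lay near 6 of 20 genes of IL-7 receptor signalling and migration and 2 of 16 B lineage markers. This order depended on the limit. Within 50 kb the counts were 8 of 12 T cell markers, 8 of 11 myeloid markers and 19 of 27 B lineage transcription factors, against 41.6% of all genes. Within 10 kb, a WAPL site of any combination lay near 21.2% of all genes. RAD21 with WAPL lay near 2.54% of all genes, which included Cd22, Xrcc5, Rpl11 and Hbb-b1 of the lists. Sites with NIPBL lay near 0.6% of all genes, with Prkdc, Hk1, Pgk1 and Hbb-b1 among the listed ones. These lists are short, share members (Ebf1, Igll1 and Myc stand in 2 each) and were chosen with earlier results known, so the counts are descriptive.

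At the immunoglobulin loci the same division held. The window of the kappa light chain locus (chromosome 6, 67 to 71 Mb) held 102 sites, of which 60 had CTCF and 43 had WAPL. Of its CTCF peaks 24 (40.0%) carried SMC3, against 36.1% over all CTCF peaks. The heavy chain window (chromosome 12, 114 to 117.5 Mb) held 175 sites, 98 with CTCF and 75 with WAPL, and 23 of its CTCF peaks (23.5%) carried SMC3. RAD21 knockout 1 had 41 peaks in the kappa window, 31 of them at CTCF, and knockout 2 had 40, of which 0 were at CTCF. In the heavy chain window the counts were 46 with 31 at CTCF, and 75 with 2 at CTCF. The number of RAD21 peaks in the kappa window was therefore nearly equal in both libraries while their places were not.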

How the data were processed

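ChIP-seq libraries of CTCF, SMC3, RAD21, WAPL and NIPBL from Brwd1 knockout small pre-B cells were analysed, 2 per target. The lists of H3K27ac and H3K4me1 knockout peaks and the knockout input served as references. The submitters' processing notes name mm9 as the build and list featureCounts, edgeR, BWA, bedtools, Picard and MACS2 as tools; their roles and versions are not given in the sources used here. Each peak in the authors' lists carries a score whose kind is not stated and whose lowest value is just above 5 in every list. The deposited counts give, for each target, the reads of every library in that target's merged regions, with 1 knockout input column although the labels name 2 input samples. The deposited input-subtracted values are treated as a score. The authors' normalized signal equals those subtracted counts times 1 constant per column, and its table was used for its gene distances alone. The files hold 2 per-sample columns of outside inputs that were not used.

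A consensus peak is a replicate 1 peak overlapping a replicate 2 peak by at least 1 bp. Overlapping consensus peaks of the 5 targets were merged into sites. Shares carry exact (Clopper-Pearson) 95% intervals, which treat peaks as independent and cover counting error only. ChIP to input ratios divide a region's reads by the total over the regions of that target, for ChIP and input alike, with 1 read added. Nearest genes were read from the distances in the annotated tables, within 10 kb of the gene start and over 23676 symbols. Peaks over more than 100 input reads per kb were called dense. For each of 4 library measures, an exact one-sided permutation test took all 945 ways of pairing the 10 libraries, with Benjamini-Hochberg adjustment over the 4. The functions were tested on simulated data. No count model was fitted, since each target has regions of its own and genotypes were not compared. TMM factors of edgeR 4.0.16 in R 4.3.3 served as an alternative scaling. Other work used Python 3.11.15 with numpy 2.4.6, pandas 2.3.3, scipy 1.17.1 and matplotlib 3.10.9.

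A CTCF motif search in the peaks was planned but no mm9 genome was used here, so the motif was read in RefSeq promoters (GRCm38.p6), joined to the tables by gene symbol. The sites named are, in each of 7 classes, the 5 with the highest lowest-score percentile and distinct nearest symbols, passing over predicted, Riken, microRNA, olfactory and vomeronasal symbols, plus those within 10 kb of 23 genes picked from the gene lists. The promoters shown were picked after their values were seen. The targets, gene lists and thresholds were chosen with earlier results of these data known.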

Additional observations from a re-analysis of the deposited data

How the results depend on the processing

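Requiring 50% overlap of the shorter peak, or setting each peak to 500 bp, moved the 5 main shares by less than their SD over the single lists (which for RAD21 at CTCF is 30.5 percentage points) and the 3 main combination counts by under 1.5 times, and so did counting combinations over unmerged peaks. Among the other shares, site counts, read levels and gene lists, 144 alternatives stayed within these limits and 94 did not, input subtraction and TMM scaling among those tried. With the union of replicates SMC3 at CTCF was 90.7%, CTCF at SMC3 46.4% and RAD21 at WAPL 61.0%; RAD21 with WAPL numbered 25844 sites and CTCF with SMC3 and RAD21 7632. With scores at least 2 times the lowest, CTCF at SMC3 was 22.4% and SMC3 at CTCF 92.9%, and the combinations numbered 4257 (CTCF with SMC3), 2831 (RAD21 with WAPL) and 17 (with CTCF, SMC3 and RAD21). With equal numbers of 1125 peaks, SMC3 at CTCF was 37.2%, RAD21 at WAPL 19.1% and NIPBL at RAD21 55.6%, and the combinations numbered 378, 122 and 40. Single replicate lists gave 40.4 to 42.8% (CTCF at SMC3), 90.4 to 92.9% (SMC3 at CTCF), 42.1 to 72.1% (RAD21 at WAPL), 1.095 to 53.9% (RAD21 at CTCF), 87.4 to 91.6% (NIPBL at RAD21), and 3934 to 10880, 4784 to 25851 and 182 to 6992 sites.

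Added after seeing the data, RAD21 from knockout 1 alone gave 53.4% at CTCF, 41.9% at WAPL, 2297 sites with CTCF and SMC3 and 6357 with all 3. RAD21 from knockout 2 alone gave 61.3% at WAPL and 22688 sites with RAD21 and WAPL. With the dense-input peaks of both targets of a pair removed, SMC3 at CTCF was 98.4%, RAD21 at CTCF 71.7%, RAD21 at WAPL 22.6% and NIPBL at RAD21 20% (of 10 peaks), with 44 sites of RAD21 and WAPL. Apart from the RAD21 and dense-input settings, whose construction shows what changed, the cause of a change was not tested.

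Replicate numbers name the libraries and were not found to pair them: across targets, the deviations of same-numbered libraries correlated at r = -0.131 to 0.0744, and 0 of 10 pairs exceeded 0.1. With the replicate block, over 120 pairings, the adjusted p of the exact permutation tests was 0.0222 (number of peaks), 0.0167 (width), 0.025 (gene starts) and 0.0167 (H3K27ac list). The gene start test gave an adjusted p of 0.0667 in the exact permutation test without target CTCF and also without target SMC3, where the smallest p possible is 0.00952.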
